A study of Mus musculus with 16 samples.

Results

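The K365T and Q418R lines of mouse embryonic stem cells were compared after 3 days without leukemia inhibitory factor (LIF). A gene entered the comparison when its mean normalised count over the 2 K365T and the 2 Q418R libraries was at least 10, which held for 17698 of the 55291 genes listed. Of the genes listed, 31923 were above 0 in at least 1 of these 4 libraries. Just inside the limit lay Gm30238 with a mean of 10.01, and just outside it lay 5830454E08Rik with a mean of 9.999.

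Both lines derive from E14Tg2a cells of strain 129/Ola, grown without feeder cells. In each, the cell's own CTCF carries a degron, a tag through which auxin triggers its destruction, and a doxycycline-inducible transgene supplies CTCF. In the K365T line this CTCF has threonine in place of lysine, and in the Q418R line, with which it is compared, arginine in place of glutamine. A line with the R342C change and a line with wild-type CTCF (WT) were made in the same way and are used for levels only. Every line was treated for 2 days, according to the protocol, with auxin (indole-3-acetic acid at 500 µM) and with doxycycline at 1 µg/ml. The cells without LIF were kept in serum medium that also lacked the GSK3 inhibitor CHIR99021 and the MEK inhibitor PD0325901, whereas the LIF cultures had all 3 additions. The labels name 1 line per genotype, so that a difference between the mutations and a difference between the lines cannot be told apart. They do not say that the 2 libraries of a group came from separate cultures, and p-values therefore measure only the spread between these libraries, which may be technical.

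CTCF is a zinc finger protein that binds DNA, halts the cohesin complex as it extrudes loops, and thereby sets the borders of chromatin domains. Among the best known of these borders are those within the Hox clusters, where they separate silent from active genes. LIF and the pair of inhibitors hold mouse embryonic stem cells in the naive pluripotent state, and cells deprived of them lose naive transcription factors and take up a formative programme before they choose a lineage.

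Recovered read numbers were 21726797 and 19721363 in the K365T libraries and 20835799 and 21985814 in the Q418R libraries. The targeted gene Ctcf had 6541 and 6574 normalised counts in K365T cells, against 8406 and 6241 in Q418R cells (log2 difference -0.14 ± 0.15 SE, adjusted p = 0.672, limma). The deposited counts do not separate the degron allele from the transgene and do not show which change a library carries. Markers of embryonic stem cells were abundant in all 4 libraries. The sum of 6 such markers, among them Pou5f1 and Sox2, was 41930 and 39028 in K365T cells and 40110 and 36053 in Q418R cells. Markers of other cell types were mixed. The sum of 7 fibroblast and feeder cell markers was 856 and 1115 in K365T cells and 751 and 1128 in Q418R cells, most of it Col1a1 and Thy1, while Lum and Postn were at 0 in all 4 libraries. The sum of 5 endoderm markers was 571 and 451 in K365T cells and 525 and 568 in Q418R cells, mostly Gata4 and Gata6, with Afp at 0 or at 1 read. Of 3 blood markers, Cd34 had 154 and 149 in K365T cells and 128 and 115 in Q418R cells, whereas Hbb-bs was at 0 and Ptprc at 0 or at 1 read. None of the tested members of these 3 lists was called between the lines, and their part in the results was not tested.

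The 2 K365T libraries differed from each other more than those of any other group of the series. Of 11712 genes with a mean of at least 100, 496 (4.24%) differed at least 2-fold between them, against 113 (0.965%) between the Q418R libraries. K365T replicate 1 had the higher naive marker levels. The sum of 6 naive markers was 24151 and 8982 in K365T cells and 9104 and 8237 in Q418R cells, so that K365T replicate 1 stood alone. The naive factor Klf4 had 2859 and 278 normalised counts in K365T cells, against 1236 and 386 in Q418R cells. K365T replicate 2 had the higher levels of some genes that mark the primitive streak. Its Wnt8a level was 1003 normalised counts, against 76.9 in K365T replicate 1 and 121 and 57.0 in Q418R cells, and its T (brachyury) level was 278, against 37.9 in K365T replicate 1 and 39.6 and 35.7 in Q418R cells. Neither Klf4 nor Wnt8a passed the test between the lines (adjusted p = 0.84 and adjusted p = 0.313, limma). In bulk RNA, fewer cells of a type and less RNA per cell cannot be told apart.

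Between the lines, 645 genes (3.64% of those tested) passed an adjusted p of 0.05 in limma on log2 of the normalised count plus 4, with the spread pooled over 16 libraries. These are the genes called below. In K365T cells 359 of them (2.03%) were higher and 286 (1.62%) were lower. At least a 2-fold difference was reached by 123 of the higher and 124 of the lower genes, and the median log2 difference was 0.82 among the higher and -0.95 among the lower ones. The median over all genes tested was -0.02. The K365T and Q418R libraries did not overlap for 7508 genes (42.4%), with K365T higher for 3652 (20.6%) and lower for 3856 (21.8%), and all 645 called genes were among them.

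The count of called genes rested on the pooled spread and on single libraries. It was 29 with the 8 libraries without LIF alone in the fit and 7 with the 4 libraries compared. It was 46 without Q418R replicate 2, 301 without Q418R replicate 1, 407 without K365T replicate 1 and 630 without K365T replicate 2, where 273 genes were higher and 357 lower. When libraries were scaled to genes outside chromosomes 1, 6, 11 and 17, 561 of 806 calls were higher (69.6%), against 55.7% in the main fit. Of the 63 called genes picked by the naming rules, the direction held in every alternative in which they were tested. With a library left out it could not turn, because the libraries of the lines did not overlap for any called gene. The fits with fewer groups compare the same group means. Without Q418R replicate 2, however, 15 of the 63 still passed the test, and with the 4 libraries alone 7 did.

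**Figure D1:**
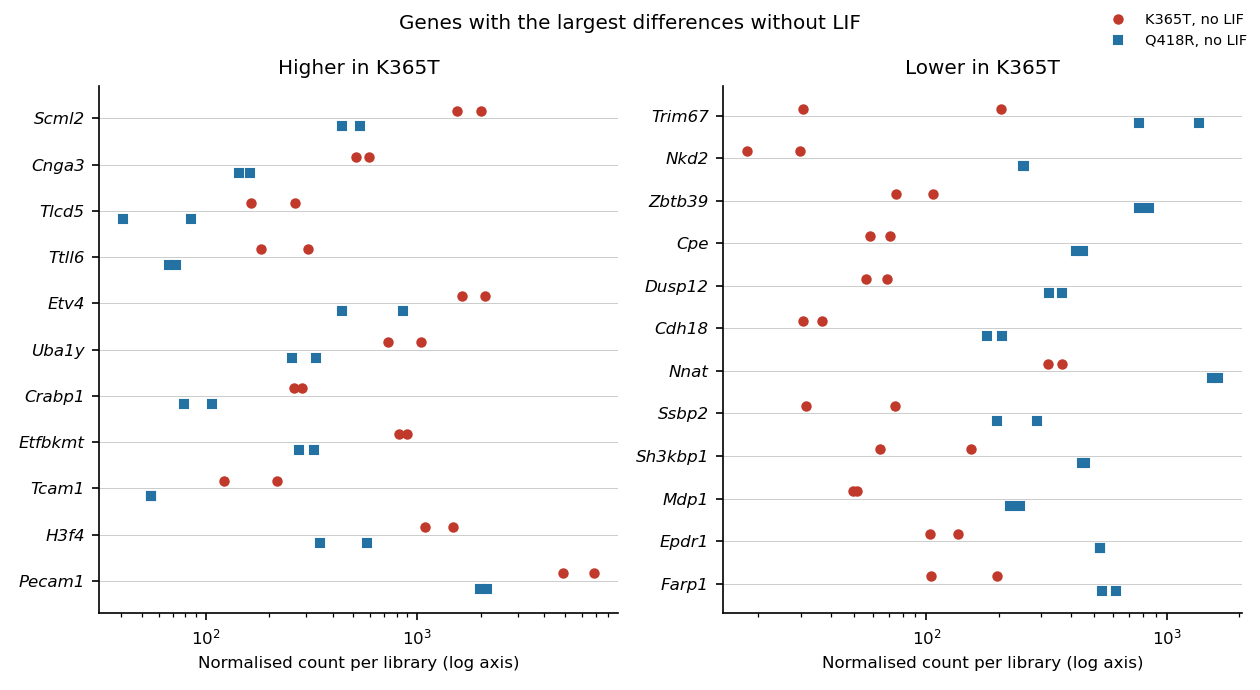
Normalised count in each library without LIF (log axis) for 11 genes with the largest rises and 12 with the largest falls in K365T cells. Red circles are the 2 K365T libraries and blue squares the 2 Q418R libraries of each gene. The colours do not overlap in any row, which was a condition for choosing these genes.

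Among the largest rises were a Polycomb protein, an adhesion molecule of naive cells and an FGF-responsive transcription factor. Scml2, a germline Polycomb protein on the X chromosome, had 2016 and 1552 normalised counts in K365T cells and 538 and 443 in Q418R cells (log2 difference 1.85 ± 0.30 SE, adjusted p = 0.00576, limma). WT cells without LIF had 281 and 412, so the K365T libraries were also above WT. Pecam1, an adhesion molecule expressed on naive cells, had 6892 and 4925 normalised counts in K365T cells and 1983 and 2145 in Q418R cells (log2 difference 1.50 ± 0.19 SE, adjusted p = 0.00153, limma). It was called without each of the 4 libraries in turn.

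Etv4, a transcription factor induced by FGF and ERK signalling, had 1640 and 2098 normalised counts in K365T cells and 856 and 441 in Q418R cells (log2 difference 1.59 ± 0.26 SE, adjusted p = 0.00582, limma). Its relative Etv1 went the other way, with 357 and 516 in K365T cells and 1398 and 1275 in Q418R cells (log2 difference -1.63 ± 0.21 SE, adjusted p = 0.002). Of 19 MEK and ERK target genes these were the ones called. For Dusp6 and Spry4, which ERK induces as its own brakes, the log2 differences were -0.35 and 0.06 and did not pass. Crabp1, which binds retinoic acid in the cytoplasm, had 287 and 262 normalised counts in K365T cells and 108 and 79.5 in Q418R cells (log2 difference 1.53 ± 0.24 SE, adjusted p = 0.00456).

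The other 7 of the 11 genes shown had log2 differences of 1.50 to 1.82. They were Cnga3, a cyclic nucleotide-gated channel, Ttll6, a tubulin polyglutamylase, Etfbkmt, a mitochondrial methyltransferase, Uba1y, a ubiquitin-activating enzyme of the Y chromosome, H3f4, a histone H3 gene, Tlcd5 and Tcam1. Uba1y belongs to a pair with the X-linked Uba1, so reads could be split between them. Cnga3 lies on chromosome 1, Etfbkmt on chromosome 6, and Ttll6, Tcam1, Etv4 and Pecam1 on chromosome 11. The medians of these 3 chromosomes were 0.24, 0.22 and 0.33 on the log2 scale, and their part in these rises was not tested. None of the 11 genes shown passed in every alternative.

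The largest falls included genes that were near the WT level in K365T cells and high in Q418R cells. Zbtb39, a zinc finger gene with a BTB domain (chr10:127739538-127747349, mm10), had 74.8 and 106 normalised counts in K365T cells, against 765 and 840 in Q418R cells. Its fall was the one with the smallest p of those named (log2 difference -3.11 ± 0.19 SE, adjusted p = 2.2e-06, limma). WT cells without LIF had 102 and 134, and R342C cells had 100.7 and 110, so that Q418R alone was high.

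Nkd2, which binds Dishevelled and dampens Wnt signalling, had 17.9 and 29.6 normalised counts in K365T cells, against 254 and 252 in Q418R cells, 35.3 and 39.3 in R342C cells and 30.6 and 48.3 in WT cells (K365T minus Q418R -3.24 ± 0.35 SE, adjusted p = 0.000541). Cpe, a carboxypeptidase that processes peptide hormones, had 70.6 and 58.1 in K365T cells, against 421 and 450 in Q418R cells and 58.4 and 39.3 in WT cells (log2 difference -2.69 ± 0.30 SE, adjusted p = 0.000804). Dusp12, a dual-specificity phosphatase, had 55.8 and 68.4 in K365T cells, against 368 and 325 in Q418R cells and 93.8 and 81.9 in WT cells (log2 difference -2.41 ± 0.24 SE, adjusted p = 0.0004). For all 3 genes both Q418R libraries lay above every K365T and WT library, and each was called without each of the 4 libraries in turn.

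Trim67, a ubiquitin ligase of neurons, had the largest fall but a wide spread, with 30.6 and 205 normalised counts in K365T cells and 769 and 1364 in Q418R cells (log2 difference -3.60 ± 0.74 SE, adjusted p = 0.019, limma). Its WT libraries had 796 and 304, the first within the range of Q418R and the second between the lines. Cdh18, a neuronal cadherin, Ssbp2, a partner of the LIM domain-binding cofactor Ldb1, Sh3kbp1, an adaptor in receptor endocytosis, Mdp1, a phosphatase, Epdr1, and Farp1, a guanine nucleotide exchange factor, had log2 differences of -2.38 to -1.98. Of these, Mdp1, Epdr1 and Farp1 were called without each of the 4 libraries in turn.

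Because both lines differ in the DNA-binding protein CTCF, the 250 bases upstream of each gene's start in the RefSeq promoter table (GRCm38.p6) were searched on both strands for a short form of the CTCF core motif, CCA and AG and GGC in this order with 2 free bases in each gap. A match was present for 336 of 11924 tested genes with a promoter in the table (2.82%), for 10 of 282 higher genes (3.55%) and for 6 of 215 lower genes (2.79%). The share among all 27025 genes of the table, which have 32851 listed stretches, was 2.41%. Shown are the called genes with a match, a mean of at least 100 and the largest difference in each direction, picked after their values were seen, and Zbtb39, which has no match in this window. Capitals mark the match. The Pik3r5 stretch is chr11:68431875-68432124 on the plus strand, that of Radil is chr5:142551099-142551348 on the minus strand, and that of Zbtb39 is chr10:127739280-127739529 on the plus strand. Radil has another listed stretch, chr5:142545028-142545277, without a match.
Pik3r5: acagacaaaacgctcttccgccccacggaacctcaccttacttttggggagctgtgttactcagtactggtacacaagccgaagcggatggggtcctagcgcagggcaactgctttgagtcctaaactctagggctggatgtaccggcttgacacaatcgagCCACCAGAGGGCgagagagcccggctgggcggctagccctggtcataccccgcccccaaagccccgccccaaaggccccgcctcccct
Radil: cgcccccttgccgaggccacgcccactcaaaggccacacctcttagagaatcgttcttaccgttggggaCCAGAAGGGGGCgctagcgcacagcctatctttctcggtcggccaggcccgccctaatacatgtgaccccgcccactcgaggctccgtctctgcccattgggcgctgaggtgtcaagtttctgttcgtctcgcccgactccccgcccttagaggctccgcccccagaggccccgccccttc
Zbtb39: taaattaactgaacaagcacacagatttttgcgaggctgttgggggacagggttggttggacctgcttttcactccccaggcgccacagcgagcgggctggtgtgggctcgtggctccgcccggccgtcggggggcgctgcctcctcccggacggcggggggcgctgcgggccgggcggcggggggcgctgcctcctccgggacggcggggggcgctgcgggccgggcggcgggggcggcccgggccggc

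Pik3r5, a regulatory subunit of phosphoinositide 3-kinase gamma, had 378 and 275 normalised counts in K365T cells and 109 and 135 in Q418R cells (log2 difference 1.38, adjusted p = 0.0311, limma). Radil, a Rap1 effector in cell adhesion, had 890 and 566 in K365T cells and 1060 and 1509 in Q418R cells (log2 difference -0.83, adjusted p = 0.0429). In both genes the libraries of the lines did not overlap, as in every called gene. A match of these letters is not a measured binding site.

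Several Hox genes, which pattern the body axis, were higher in K365T cells. Of 38 Hox genes counted here, 16 reached a mean of 10 and were tested, and 7 of these rose and none fell, against 2.03% higher among all genes tested. For 9 of the 16, 4 of the called genes among them, the Q418R mean was under 10, so that they were tested only because of their K365T level. The other 22 had 99 reads in all in K365T cells and 55 in Q418R cells. Summed over the 38 genes, the recovered reads were 1342 in K365T cells and 437 in Q418R cells.

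**Figure D2:**
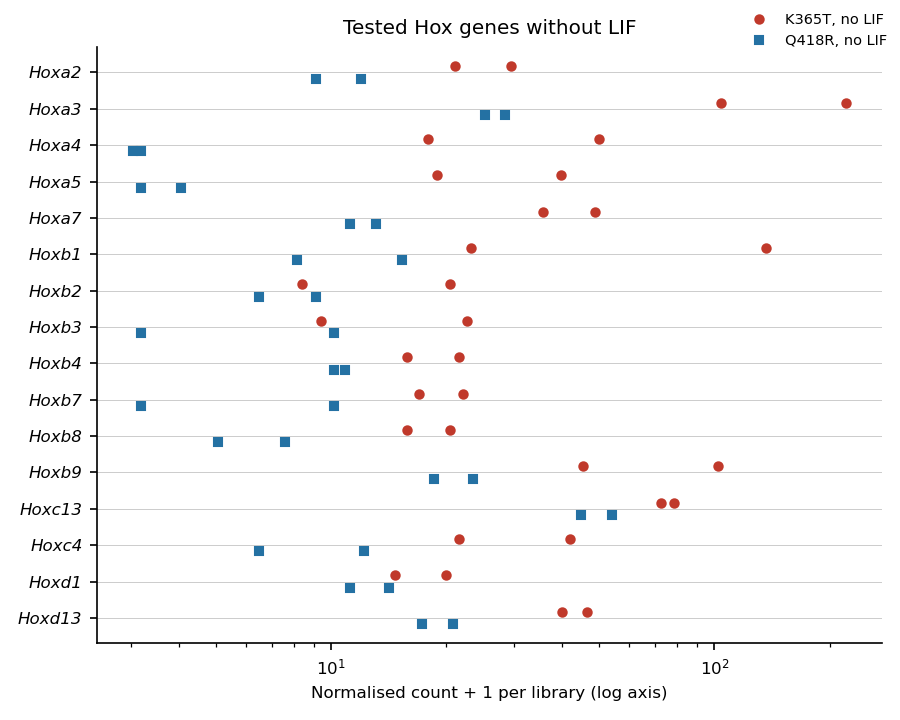
Normalised count plus 1 in each library without LIF (log axis) for 16 Hox genes tested. Red circles (K365T) lie to the right of blue squares (Q418R) in most rows, and the K365T libraries lie farthest apart in Hoxb1, at 22.1 and 136.

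Of the 7 rises, 4 lay in the HoxA cluster, between Hoxa3 and Hoxa7. Hoxa3 had 103 and 220 normalised counts in K365T cells and 24.2 and 27.5 in Q418R cells (log2 difference 2.38 ± 0.35 SE, adjusted p = 0.00356, limma). Hoxa4 had 16.9 and 49.0 in K365T cells and 2.20 and 2.04 in Q418R cells (log2 difference 2.44 ± 0.53 SE, adjusted p = 0.0244), and Hoxa5 had 17.9 and 38.8 against 2.20 and 3.06 (log2 difference 2.21 ± 0.40 SE, adjusted p = 0.00998). For all 3, as for every called rise, both K365T libraries lay above both Q418R libraries. In these 3 genes K365T replicate 2 was the higher.

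Hoxa7, Hoxb8, Hoxb9 and Hoxc4 also rose, by 1.57, 1.18, 1.58 and 1.47 on the log2 scale. In Hoxb9 the order within the K365T libraries was reversed, at 101.2 and 44.5 normalised counts, against 17.6 and 22.4 in Q418R cells. Hoxa2 and Hoxb1 had log2 differences of 1.05 and 2.08 that did not pass (adjusted p = 0.121 and adjusted p = 0.0865, limma). In LIF, Hoxa3 had 209 and 137 normalised counts in K365T cells and 100.1 and 95.6 in Q418R cells, without overlap between the lines (log2 difference 0.76, adjusted p = 0.238, limma). The change of its difference between media was 1.61 on the log2 scale and did not pass (adjusted p = 0.29). Of the 14 tested genes on the Hox list of 30, 6 were called, and 2 were called without Q418R replicate 1, 1 without Q418R replicate 2 and none with the 8 libraries without LIF. The HoxA genes lie on chromosome 6 and the HoxB genes on chromosome 11, and the chromosome medians were 0.22 and 0.33 on the log2 scale, and their part in these rises was not tested.

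The differences followed chromosomes. On chromosome 11, 129 of 1331 tested genes were higher in K365T cells and 2 were lower, and the median log2 difference of the chromosome was 0.33. On chromosome 1, 46 of 1110 genes were higher and 8 lower, with a median of 0.24. On chromosome 6, 46 of 872 genes were higher and 7 lower, with a median of 0.22. Chromosome 3 had the lowest median, -0.18, with 26 genes lower and 5 higher. Chromosome 14 had the most lower genes, 29 against 3 higher, but its median of -0.10 was not set apart. Those of chromosomes 12, X and 18, among others, were lower, at -0.14, -0.14 and -0.11.

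**Figure D3:**
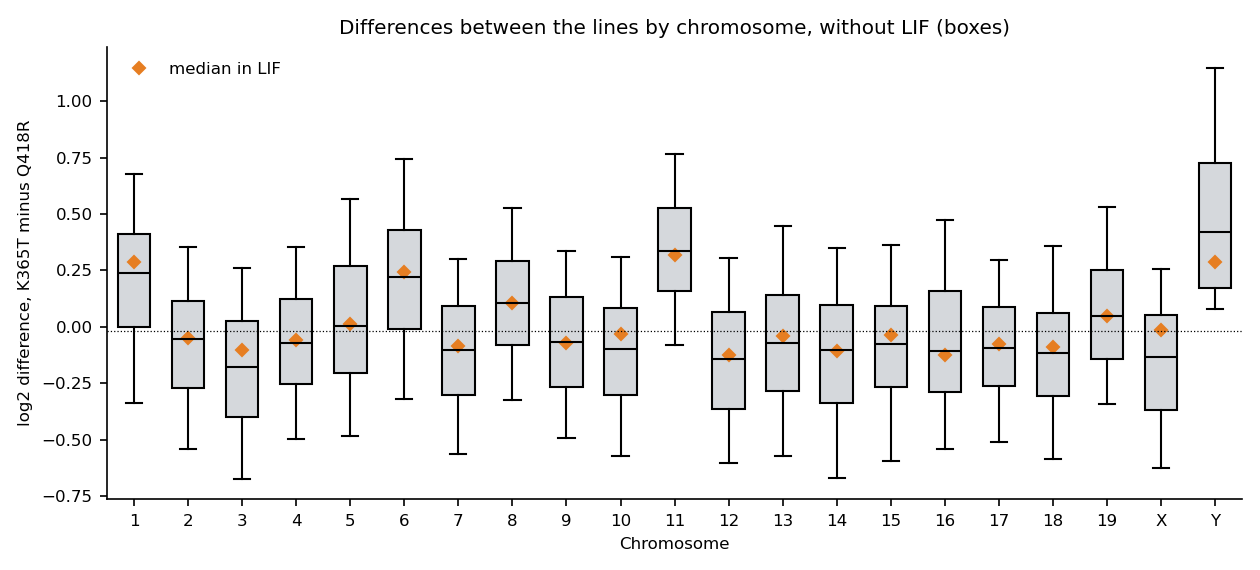
Log2 difference between K365T and Q418R without LIF for the genes tested on each chromosome. Boxes give the quartiles and median, whiskers the 10th and 90th percentiles, the dotted line the median of all genes and orange diamonds the median in LIF, and chromosomes 1, 6 and 11 and the 11 genes of chromosome Y stand highest.

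Each library's own chromosome 11 median, relative to the mean of the 4, was 0.17 and 0.17 in K365T cells and -0.15 and -0.17 in Q418R cells. The shift was thus present in both libraries of each line. In LIF, whose libraries are separate ones, the medians of K365T minus Q418R were 0.32 for chromosome 11, 0.29 for chromosome 1 and 0.24 for chromosome 6. In windows of 10 Mb (8 or more genes of mean at least 100 each), the median was above 0 in 13 of 13 windows of chromosome 11, in 18 of 19 of chromosome 1 and, on chromosome 6, in 13 of 13 from 20 to 150 Mb, bounds chosen after the values were seen. The 2 windows of chromosome 6 from 0 to 20 Mb had medians of -0.24 and 0.05, with no gene higher and 1 lower of 32.

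The medians against WT without LIF differed between the lines. The chromosome 11 median was 0.39 for K365T minus WT and 0.05 for Q418R minus WT. The chromosome 1 median was 0.46 for K365T and 0.23 for Q418R, and the chromosome 6 median was -0.13 for K365T and -0.35 for Q418R. These 2 comparisons share the WT libraries.

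Stretches within chromosomes 5 and 16, chosen after the values were seen, were shifted as well. From 0 to 40 Mb on chromosome 5, 26 of 186 genes with a mean of at least 100 were higher and 2 lower, with a median of 0.35, while the rest of the chromosome had a median of -0.06. From 30 to 40 Mb on chromosome 16, 12 of 73 such genes were higher and 1 lower, with a median of 0.33, between neighbouring stretches at -0.15 and -0.18. Against WT without LIF, the chromosome 5 stretch had medians of -0.13 for K365T and -0.47 for Q418R. The chromosome 16 stretch had medians of 0.38 for K365T and 0.03 for Q418R. Chromosomes 1, 5, 6, 11 and 16 together hold 28.3% of the tested genes, 266 of the 359 higher genes (74.1%) and 50 of the 286 lower genes (17.5%). When only genes outside these 5 chromosomes were tested, 78 were higher and 177 lower.

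The genes named next were picked for their abundance among the called rises of the shifted chromosomes. On chromosome 11, Eftud2, a GTPase of the spliceosome, had 11742 and 13114 normalised counts in K365T cells and 7024 and 5797 in Q418R cells (log2 difference 0.96 ± 0.14 SE, adjusted p = 0.00312, limma). The lines did not overlap, which held for every called gene. The histone variant gene H3f3b and Mybbp1a, a nucleolar regulator of ribosome synthesis, rose by 0.53 and 0.52 on the log2 scale. On chromosome 1, Mdm4, a p53 inhibitor, and Soat1, which esterifies cholesterol, rose by 0.82 and 0.78. On chromosome 6, Tnpo3, a nuclear import receptor, and Phb2, a mitochondrial prohibitin, rose by 0.40 and 0.50. Each gene named in this paragraph lost its call in some of the alternatives.

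Of 20 genes that p53 activates, 5 were called, all higher in K365T cells, against 2.03% of all genes tested. The median log2 difference of the 20 was 0.45, against -0.02 for all genes. Cdkn1a, which encodes the cell cycle inhibitor p21, had 2697 and 2734 normalised counts in K365T cells and 1791 and 1387 in Q418R cells (log2 difference 0.78 ± 0.15 SE, adjusted p = 0.0158, limma). Btg2, an antiproliferative gene, had 2688 and 3597 in K365T cells and 1365 and 1106 in Q418R cells (log2 difference 1.34 ± 0.21 SE, adjusted p = 0.00456). Phlda3, an Akt repressor, had 1696 and 1514 in K365T cells and 743 and 629 in Q418R cells (log2 difference 1.22 ± 0.20 SE, adjusted p = 0.00582). In all 3 genes both K365T libraries were above both Q418R libraries, as in every called rise.

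**Figure D4:**
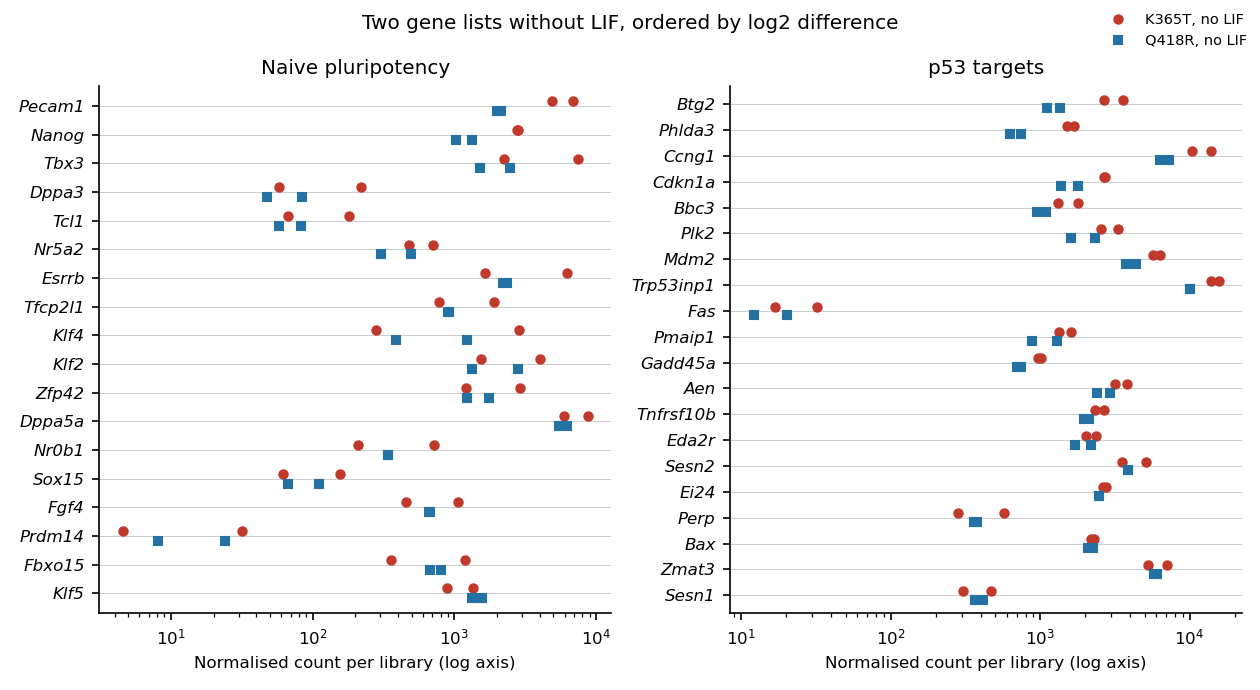
Normalised count in each library without LIF (log axis) for the 18 naive pluripotency genes (left) and the 20 p53 target genes (right), ordered by log2 difference. Among naive genes one K365T library (red circles) often lies far to the right of the other, as for Klf4 at 2859 and 278, while in Cdkn1a, among the p53 targets, the K365T libraries lie close together at 2697 and 2734.

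Ccng1, a cyclin G gene, and Trp53inp1, a p53 cofactor, rose by 0.82 and 0.56 on the log2 scale. Mdm2, the ligase that degrades p53, had 6315 and 5736 normalised counts in K365T cells and 4376 and 3750 in Q418R cells, with no overlap and an adjusted p of 0.0509 (limma). The cell death genes Bax, Bbc3 and Pmaip1 had log2 differences of 0.06, 0.60 and 0.45 and did not pass. In LIF the median of the list was -0.07. Btg2 was also called higher in K365T cells in LIF (log2 difference 0.77, adjusted p = 0.0431, limma). Phlda3 and Ccng1 had log2 differences of 0.37 and 0.22 in LIF and did not pass. Btg2 and Phlda3 lie on chromosome 1 and Ccng1 on chromosome 11, with the raised medians given above. Cdkn1a and Trp53inp1 lie on chromosomes 17 and 4, whose medians were -0.09 and -0.07. When only genes outside chromosomes 1, 5, 6, 11 and 16 were tested, 1 of 16 genes of the list was called higher. Among all 12694 genes in that test, 78 were called higher. Without Q418R replicate 2 none of the 20 was called, and with the 8 libraries without LIF 2 were.

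Naive pluripotency genes gave 2 calls of 18, both upward, against 2.03% higher among all genes tested. Nanog, a core factor of the naive state, had 2765 and 2808 normalised counts in K365T cells and 1323 and 1022 in Q418R cells (log2 difference 1.26 ± 0.21 SE, adjusted p = 0.00582, limma). Pecam1, described above, was the second. The K365T libraries were alike in Nanog, whereas K365T replicate 1 was the higher one in every other gene of the list. Esrrb, an orphan nuclear receptor of the naive network, had 6282 and 1658 in K365T cells and 2366 and 2216 in Q418R cells (log2 difference 0.49 ± 0.42 SE, adjusted p = 0.583). Tbx3, a T-box factor of the same network, had 7424 and 2258 in K365T cells and 1510 and 2472 in Q418R cells, with overlap. The list's median was 0.36. It was -0.32 without K365T replicate 1, with 2 genes higher and 2 lower, and 1.06 without K365T replicate 2, with 10 genes higher. The direction of the list's median thus turned with the K365T library used. Nanog lies on chromosome 6 and Pecam1 on chromosome 11.

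Lists of general pluripotency (15 tested), of the LIF receptor and STAT3 targets (14) and of primitive streak and mesoderm (11) had no called gene. Of 19 formative and primed genes, Etv4 was the call. Otx2, a driver of the formative state, had 1040 and 905 normalised counts in K365T cells and 1176 and 1381 in Q418R cells (log2 difference -0.39 ± 0.31 SE). Pou3f1, a POU factor of formative cells, had 571 and 1483 in K365T cells and 1782 and 1597 in Q418R cells, both lower but far apart in K365T (log2 difference -0.87 ± 0.41 SE). Neither passed (adjusted p = 0.55 and adjusted p = 0.263, limma).

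Among lineage genes, Ncam1, a neural adhesion molecule, fell, with 144 and 261 normalised counts in K365T cells and 585 and 536 in Q418R cells (log2 difference -1.51 ± 0.24 SE, adjusted p = 0.00576, limma). Cxcr4, a chemokine receptor of definitive endoderm on chromosome 1, rose by 1.44, and Lama1, a laminin chain of basement membranes, fell by 1.02. In the trophectoderm list Tfap2c, an AP-2 factor shared with germ cells and naive cells, rose by 1.13. Fgfr2, an FGF receptor, fell, with 664 and 646 in K365T cells and 1539 and 1372 in Q418R cells (log2 difference -1.14 ± 0.25 SE, adjusted p = 0.0256). The lines did not overlap in any of these 5 genes, which held for every called gene. Each of the 5 lost its call in some of the alternatives. Other members that define trophectoderm did not pass, and Elf5 was at 0 in K365T cells and at 1 read in each Q418R library.

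Imprinted genes, which are expressed from 1 parental copy and often regulated through CTCF at their control regions, gave 4 calls of 34, 2 in each direction, against 3.64% called in either direction among all genes tested. The median of the list was 0.01. Nnat, a paternally expressed neuronal gene, had 320 and 367 normalised counts in K365T cells and 1642 and 1542 in Q418R cells (log2 difference -2.20 ± 0.45 SE, adjusted p = 0.0187, limma). Grb10, a growth inhibitor, had 2228 and 3942 in K365T cells and 7390 and 10007 in Q418R cells (log2 difference -1.54 ± 0.23 SE, adjusted p = 0.00356), 1 of the 2 called falls on chromosome 11. Both libraries of each line were apart from those of the other, as in every called gene. Nnat and Grb10 each lost their call in some of the alternatives.

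Mest, a paternally expressed hydrolase gene, and Plagl1, a zinc finger gene, rose by 1.21 and 1.13 on the log2 scale. H19, the noncoding RNA whose control region CTCF binds, had 133 and 168 normalised counts in K365T cells and 94.5 and 127 in Q418R cells, and Igf2, its growth factor neighbour, had 45.3 and 152 and 55.0 and 66.2 in the same order. Neither passed (adjusted p = 0.636 and adjusted p = 0.813, limma).

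Of 23 genes for CTCF, cohesin and their regulators, Top2b, a topoisomerase that associates with CTCF sites, was the call. It had 1562 and 1916 normalised counts in K365T cells and 2929 and 2526 in Q418R cells (log2 difference -0.65 ± 0.14 SE, adjusted p = 0.0213, limma). Rad21 and Stag2, subunits of cohesin, had log2 differences of -0.26 and -0.31 and did not pass. The 17 clustered protocadherin genes tested, whose promoter choice depends on CTCF, had no call and a median of -0.26. There was 1 call in each of the lists of Polycomb (Scml2), germline (Stag3, a meiotic cohesin subunit), DNA methylation (Mbd2), glycolysis (Pgk1), proliferation (Ccnd3), Nodal and BMP signalling (Bmpr1a) and ephrin genes (Ephb2). The first 2 of these rose and the other 5 fell. Each of them, like Top2b, lost its call in some of the alternatives. No gene was called among 15 Wnt targets, 9 genes of the 2-cell-like state, 8 oocyte genes, 18 stress genes, 10 fibroblast genes, 13 mitochondrially encoded genes and 18 genes of cadherins and epithelial-mesenchymal transition.

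With LIF, 998 genes (5.64%) were called between K365T and Q418R, 577 higher (3.26%) and 421 lower (2.38%). The group means in LIF come from separate libraries, but both comparisons take their error from the spread pooled over the same 16 libraries. The calls in the 2 media therefore do not come from independent fits. Within each line, same-numbered libraries also deviated together between media, with correlations of 0.366 for K365T and 0.418 for Q418R. Of the 645 genes called without LIF, 234 (36.3%, or 23.4% of those called in LIF) were called in both media, 229 of them in the same direction. The sign was the same in LIF for 580 of the 645 (89.9%), against 67.2% of all genes tested. Across the 17698 genes, which are not independent of each other, Pearson's r between the differences in the 2 media was 0.40.

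**Figure D5:**
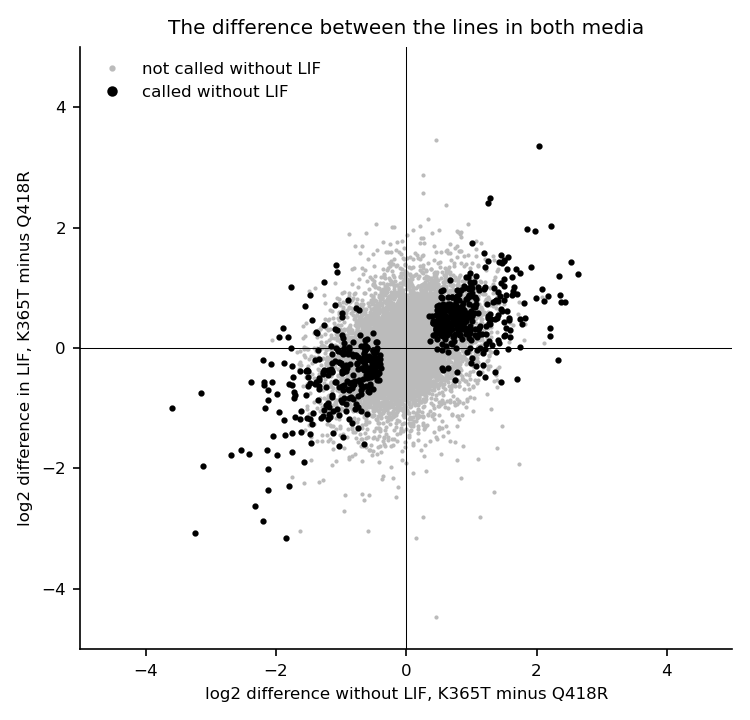
Log2 difference between K365T and Q418R without LIF (horizontal) and in LIF (vertical), 1 point per gene tested. Black points are the 645 genes called without LIF, of which 580 have the same sign in both media, and grey points are all other genes.

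Zbtb39 illustrates a difference present in both media, with 482 and 400 normalised counts in K365T cells and 1601 and 1855 in Q418R cells in LIF (log2 difference -1.96, adjusted p = 0.00025, limma). Nkd2, Mdp1 and Epdr1 were also lower in K365T cells in LIF, by log2 differences of -3.06, -2.01 and -2.36. The difference itself changed between media for 16 genes (0.0904%) by the interaction term in limma, upward for 5 (0.0283%) and downward for 11 (0.0622%). Dnah8, an axonemal dynein heavy chain, was 1 of 5 among them that were also called without LIF. It had 7154 and 7118 normalised counts in K365T cells and 3257 and 3834 in Q418R cells without LIF, and 9551 and 10416 in K365T cells and 10867 and 11603 in Q418R cells in LIF. The K365T libraries were higher without LIF (log2 difference 1.01 ± 0.10 SE, adjusted p = 0.0004) and the difference in LIF did not pass (log2 difference -0.17, adjusted p = 0.38). The change between media was 1.18 (adjusted p = 0.0043).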

How the data were processed

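Total RNA was sequenced from 16 libraries of 8 groups (4 lines in 2 media), 2 per group, as 150 bp paired reads from 500 ng of RNA after ribosomal RNA depletion, per the labels' protocols. The submitters' processing notes list DESeq2, STAR, Trim Galore and build mm10, with versions, counting tool and annotation not given in the sources used here. The main values are the authors' deposited normalised counts (signal), in which each library was scaled by its own factor. Dividing by the value of 1 read gave whole numbers within 0.05 for 100% of values in each library, including 1 Q418R library in LIF whose value of 1 read, 0.996, is close to 1, and reads were thus recovered, 19721363 to 31935381 per library. TPM, computed and deposited by the authors with unstated gene lengths, served as an alternative.

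Log2(normalised count + 4) was fitted with limma 3.58.1 (eBayes with a trend, R 4.3.3), 8 group means over 16 libraries and 8 residual degrees of freedom. P-values were adjusted by Benjamini-Hochberg over the 17698 genes, threshold 0.05. The 4 added compresses differences of low genes. Difference between media was an interaction contrast. The fit was tested on simulated data. Alternatives were other pseudocounts, filters and scalings, TPM, edgeR 4.0.16 and DESeq2 1.42.0 on recovered reads, a replicate block, fewer libraries and each library left out.

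Named were Ctcf, the 12 largest rises and falls (mean at least 100, no overlap, no clone names), up to 3 called members or the 2 most abundant members of each of 29 gene lists, up to 5 genes per direction for the difference between media, and the 5 most abundant called genes of shifted chromosomes. A gene these rules pick is not reported here and stands in no list, others are not described, and other list members, Hox genes and genes of the replicate comparison were named after their values were seen. The gene set, lists and rules were chosen with earlier results of these data known. Positions came from GENCODE M21 (mm10), in which 97.9% of the tested genes had 1 position. No sample was left out.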

Additional observations from a re-analysis of the deposited data

Results flagged for a closer look

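The difference between K365T and Q418R changed between media for 16 genes, 5 with a positive and 11 with a negative change (no LIF minus LIF). At an unadjusted p of 0.05, 1437 genes passed. Of the 15 genes with a mean of at least 100, those named here are the 4 with a positive change and the 5 of 11 with the largest negative change. Each change was tested by the interaction term in limma. The number was 4 without Q418R replicate 2 and 37 without K365T replicate 1.

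Gad1, which makes the transmitter GABA, had the largest change, 4.93 on the log2 scale (adjusted p = 0.0032). It had 44.3 and 31.9 normalised counts in K365T cells and 29.7 and 23.4 in Q418R cells without LIF, against 18.8 and 39.0 in K365T cells and 778 and 615 in Q418R cells in LIF. Ephx2, a soluble epoxide hydrolase, changed by 3.31 (adjusted p = 0.0032), and Eppk1, a cytolinker of the plakin family, by 1.40 (adjusted p = 0.036). In both, Q418R was high in LIF. Dnah8 changed by 1.18, as described above.

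The 5 named genes with a negative change had a log2 difference above 0 in LIF and below 0 without it. Without LIF the difference did not pass for Fbn2 and Tmem28 (adjusted p = 0.148 and adjusted p = 0.355, limma). That of Gsta3 rested on low levels, 5.27 and 6.84 normalised counts in K365T cells and 19.8 and 20.4 in Q418R cells. Fbn2, a fibrillin, changed by -2.48, Grin1, an NMDA receptor subunit, by -2.44, Gsta3, a glutathione transferase, by -2.37, Ltbp1, which binds latent TGF-beta, by -2.33, and Tmem28 by -2.08. Their adjusted p-values lay between 0.019 and 0.047. Ephx2 and Gad1 passed in every alternative in which they were tested, and Tmem28 in 9 of 17.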

How the results depend on the processing

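With 2 libraries a group, precision rested on a spread pooled over 16 libraries, and leaving one out assumes that the lone library varies like the other groups. Against 645 calls without LIF, the count was 156 with TPM, 1217 with DESeq2 and 613 with edgeR on recovered reads, 29 with the 8 libraries without LIF and 7 with the 4 compared. Testing only genes outside chromosomes 1, 5, 6, 11 and 16, chosen after seeing the data, gave 255. Leaving out each library gave 46 to 630. Against 16 calls between media, the count was 9 with a mean of at least 50, 2 with TPM and 187 with DESeq2, and 4 to 37 with a library left out. The cause was not tested.

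The replicate number did not pair the K365T and Q418R libraries without LIF (correlation of deviations -0.035 over 11712 genes). Other groups did deviate together or apart, from -0.520 for R342C and WT to 0.556 for K365T and R342C, all without LIF. Between media the correlation was 0.366 within K365T and 0.418 within Q418R. The main fit took all libraries as independent. With the replicate block, 683 genes were called without LIF and 14 between media. Leaving out WT replicate 2 without LIF, also chosen after seeing the data, gave 736 and 20.

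Of the genes picked by the naming rules, those whose sign turned were not called in the main fit. Scaling to genes outside chromosomes 1, 6, 11 and 17 gave Hspa5 0.044, and TPM gave Slc3a2 -0.005. With a library left out, the values ran from -0.358 to 0.071 for Ctcf, -0.205 to 0.031 for Trim28, -0.239 to 2.797 for Wnt3, -0.297 to 0.119 for Il6st, -0.057 to 0.235 for Fzd7, -0.306 to 0.064 for Eif1a, -0.054 to 0.717 for Nlrp4c, -0.446 to 0.038 for Pcdhgc5, -0.361 to 0.344 for Hspa5, -0.173 to 0.210 for Slc3a2, -0.010 to 1.283 for Fn1, -0.160 to 0.053 for Cdh1, -0.232 to 0.525 for Ephx2 and -0.071 to 0.273 for Eppk1 (log2 differences).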

Other observations

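The 6 genes with the largest excess in K365T replicate 1 over K365T replicate 2 included the immediate early genes Fosb and Fos. Fosb had 3202 and 247 normalised counts in the K365T libraries, and 1929 and 1396 in the Q418R libraries. Fos had 3093 and 402 in K365T cells and 3215 and 746 in Q418R cells, so that replicate 1 was the higher in both lines. Those with the largest excess in K365T replicate 2 included Wnt3, at 41.1 and 366 in K365T cells and 50.6 and 47.9 in Q418R cells, and Fst, an activin antagonist, at 120 and 768 in K365T cells and 163 and 79.5 in Q418R cells. None of these 4 genes passed the test between the lines.

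Meg3, a maternally expressed noncoding RNA, had 8502 and 13421 normalised counts in K365T cells and 12995 and 13149 in Q418R cells without LIF, where K365T replicate 1 was low and replicate 2 was within the Q418R range or above it. In LIF, Meg3 had 1954 and 1739 in K365T cells and 4050 and 4513 in Q418R cells (log2 difference -1.21, adjusted p = 0.00153, limma), and both K365T libraries lay below both Q418R libraries. The change of the difference between media did not pass (adjusted p = 0.18).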
